A study of Macaca mulatta with 60 samples.

Results

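Thyroid hormone receptor beta (Thrb) was followed here as 1 array transcript, ENSMMUT00000000096, out of 26149 measured on 60 arrays from fetal rhesus monkeys (Macaca mulatta). The transcript was taken by its identifier, with earlier results of these data known, and its name comes from the tables of the study. In a table of gene names, the gene to which the study assigns it carries the symbol THRB. The arrays cover both ventricles, left (LV) and right (RV), both atria, left (LA) and right (RA), and biceps femoris (BFM), a skeletal muscle of the hind limb. The array titles of each of the 5 tissues carry the numbers 1 to 12, with the same group at each number. A shared number was taken as 1 female fetus, so that each of the 12 fetuses contributed 5 arrays.

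The fetuses formed 4 groups of 3. Bisphenol A (BPA), a chemical used in the manufacture of polycarbonate plastics, was given to the dams by mouth in deuterated form at 400 µg per kg body weight each day, on fruit, with ethanol as the vehicle, and control dams received the vehicle alone. Exposure ran in early gestation (EG) from day 50 to day 100, give or take 2 days, and in late gestation (LG) from day 100 to term. Fetuses 1 to 3 were EG controls, 4 to 6 EG BPA, 7 to 9 LG controls and 10 to 12 LG BPA. EG fetuses were obtained by caesarian section once exposure had ended and LG fetuses were born vaginally, so fetal age and mode of delivery cannot be told apart in any difference between LG and EG.

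Thyroid hormone receptor beta is a nuclear receptor. It sits on DNA at thyroid hormone response elements, usually beside a retinoid X receptor, holds target genes down through corepressor complexes when no hormone is bound, and activates them through coactivators when triiodothyronine (T3) binds. In the mammalian heart, thyroid hormone raises Myh6, the alpha myosin heavy chain, and lowers the beta isoform, and fetal thyroid hormone rises before birth. In cardiac muscle most thyroid hormone signalling runs through the alpha receptor, while the beta receptor is best known from liver, pituitary and the sensory organs.

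The authors normalized each tissue on its own, so a level of Thrb is a log2 value that can be set against others of the same tissue, and a level between tissues is a description only. Array medians spanned at most 0.13 within a tissue, and 5 arrays stood apart in their median correlation, across transcripts, with the other arrays of the tissue. In RV it was 0.848 for BPA exposed fetus 12 and 0.902 for control fetus 7, against 0.953 to 0.970 for the other 10, and in LV it was 0.858 for control fetus 2, against 0.905 to 0.930 for the other 11. Control fetus 3 was the lowest in both atria by a smaller margin, at 0.958 in LA, against 0.968 to 0.974, and 0.949 in RA, against 0.960 to 0.970. Each fetus was left out in turn for the changes and relations of Thrb, but not for the listed genes or the likeness to other transcripts. Myh6, used as a check of the tissue labels, lay between 14.30 and 14.96 on all 24 atrial arrays, between 6.28 and 6.95 in BFM of EG fetuses, between 6.63 and 10.60 in BFM of LG fetuses, and over a wide range in the ventricles, which is described beside its relation to Thrb. In LV it was 5.69 to 7.16 in EG fetuses, across the EG values of BFM, and reached 14.43 in LG, within the atrial range. Myh6 could thus check only the labels of atria against BFM. The tissues were whole pieces, in which fewer cells of a type and less RNA per cell cannot be told apart.

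By the interquartile range, Thrb varied less in the heart than in BFM, although it ran from 5.18 to 8.66 in RV and from 6.84 to 10.80 in BFM. The interquartile range over the 12 arrays of a tissue was 2.76 in BFM, 0.86 in LV, 0.83 in RA, 0.63 in RV and 0.28 in LA. The study kept only transcripts with an interquartile range of at least 0.5, so Thrb passed in LV, RV, RA and BFM and failed in LA, where the values below come from a fit of all 26149 transcripts. A transcript was called when the log2 fold change (LFC) was at least 1 in size and the unadjusted limma p at most 0.01, as in the methods of the study, and a Benjamini-Hochberg adjusted p over all transcripts tested in the tissue is given beside it.

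In LV, Thrb was 6.93, 7.85 and 7.25 in the EG controls (fetuses 1, 2 and 3) and 6.77, 7.16 and 7.08 in the EG BPA fetuses (4, 5 and 6). The LG controls (7, 8 and 9) had 7.29, 7.95 and 7.78, and the LG BPA fetuses (10, 11 and 12) 8.51, 8.90 and 8.14. All 3 LG BPA fetuses lay above the other 9, and EG and LG controls overlapped. Separation from the 3 LG controls alone was seen in 4.41% of the 17628 transcripts tested in LV. No share over all transcripts was taken for separation from all 9.

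In RV, the EG controls had 7.37, 7.39 and 7.77 and the EG BPA fetuses 7.50, 7.12 and 6.59. The LG controls had 7.66, 8.19 and 8.44, and the LG BPA fetuses 7.86, 8.66 and 5.18. The last value, of fetus 12, was the lowest of all 60 and came from the array with the lowest correlation, where it was 1.84 above the lowest value of the array. The remaining LG BPA fetuses lay within or above the range of the LG controls.

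In LA, the EG controls had 8.41, 8.57 and 7.48 and the EG BPA fetuses 8.17, 8.58 and 8.72. The LG controls had 8.72, 8.60 and 9.18 and the LG BPA fetuses 8.65, 9.08 and 8.46. EG control fetus 3 was the only LA sample below 8, and the BPA groups overlapped their controls in both windows.

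In RA, the EG controls had 7.88, 7.63 and 7.25 and the EG BPA fetuses 7.81, 8.21 and 8.36. The LG controls had 9.08, 8.59 and 9.02 and the LG BPA fetuses 8.54, 9.31 and 8.55. All 6 LG fetuses lay above all 6 EG fetuses, as did 3.16% of the 9329 transcripts tested in RA.

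In BFM, the EG controls had 7.37, 7.56 and 7.47 and the EG BPA fetuses 8.26, 7.24 and 6.84. The LG controls had 10.80, 10.08 and 10.34 and the LG BPA fetuses 9.85, 10.17 and 10.45. Again all LG fetuses lay above all EG fetuses, here with a gap of 1.58 on the log2 scale. Of the 8609 transcripts tested in BFM, 22.2% had their LG and EG fetuses separated in that direction.

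**Figure D1:**
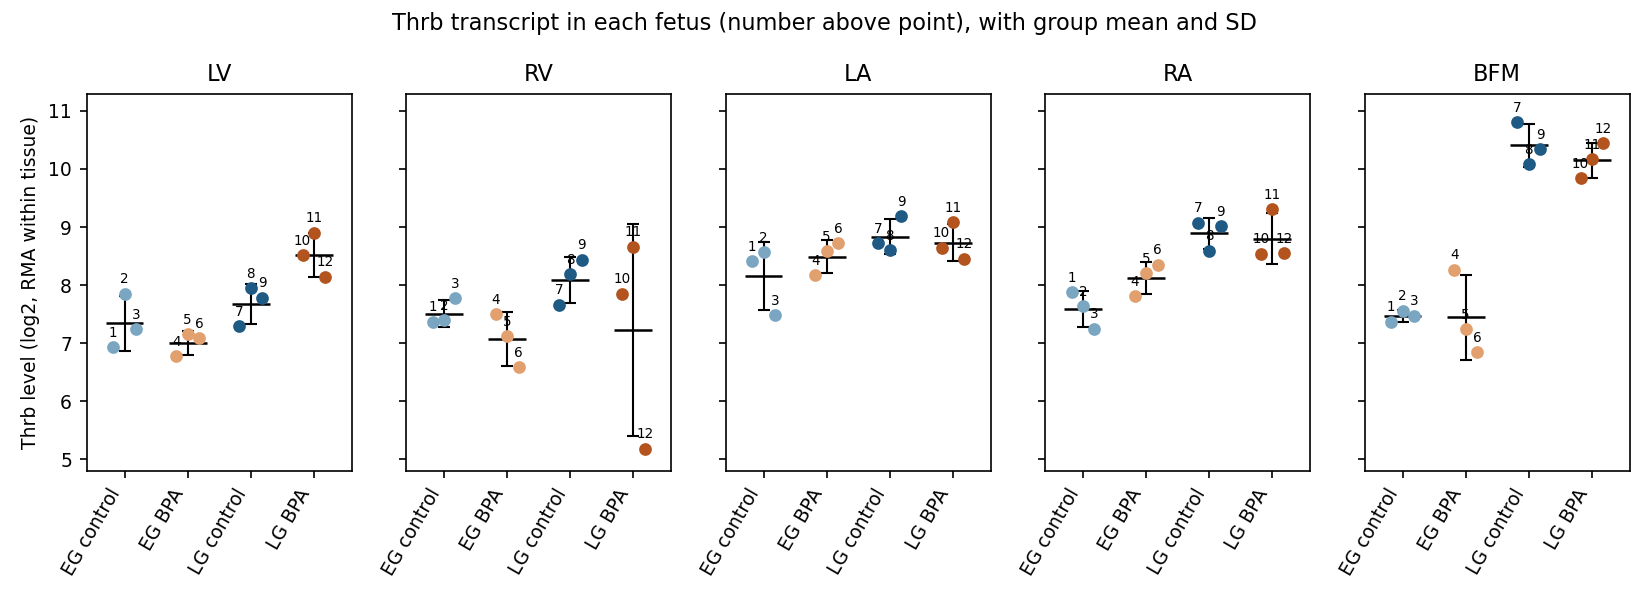
Log2 level of Thrb (vertical axis) in each fetus, numbered, by group and tissue, with the group mean (line) and SD (bar, n = 3). BFM of LG fetuses sits between 9.85 and 10.80 with the EG fetuses at or below 8.26, and RV of fetus 12 lies alone at 5.18.

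Ordered by the mean of EG controls, LA came first at 8.16 ± 0.59 (SD, n = 3), then RA at 7.59 ± 0.32, RV at 7.51 ± 0.23, BFM at 7.47 ± 0.10 and LV at 7.34 ± 0.47. The ranges of every pair of neighbours in that order overlapped. In LG controls, BFM led at 10.41 ± 0.37 (SD, n = 3), followed by RA at 8.90 ± 0.27, LA at 8.83 ± 0.31, RV at 8.10 ± 0.40 and LV at 7.67 ± 0.34, where BFM was separated from RA and LA from RV but RA and LA, and RV and LV, overlapped. Because the array medians differ between tissues, the order was also taken after subtracting each array's median. BFM was then the lowest in EG controls, at −0.26 and below the range of RA, and still the highest in LG controls, at 2.79 and above the range of LA, and the order of the heart chambers changed. In EG controls, neighbouring chambers overlapped on both scales.

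The change with gestation was assessed as LG minus EG, in controls alone and over both treatments, in each tissue. Thrb was higher in LG in BFM and RA, and higher in LV over both treatments by a margin that did not pass adjustment over all transcripts. Over both treatments RV and LA gave smaller differences. In controls alone the difference in LV, 0.33, was the smallest of any tissue. In BFM the LFC over both treatments was 2.82 (SE 0.24, 95% CI 2.30 to 3.34), a 7.08-fold higher level, with a limma adjusted p of 3.64e-06. In controls alone it was 2.94 (SE 0.33, adjusted p 8.34e-05) and in BPA exposed fetuses 2.71 (SE 0.33, adjusted p 0.000167). Calls were frequent in this tissue, as 12.2% of transcripts were called higher over both treatments, 12.7% in controls, and 32% had an adjusted p of at most 0.05 and were higher in LG.

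In RA the LFC over both treatments was 0.99 (SE 0.24, 95% CI 0.46 to 1.51), a 1.99-fold higher level, with a limma adjusted p of 0.0239. It passed the adjusted threshold of 0.05, as did 3.74% of the transcripts tested in the direction of higher in LG, but lay just under the size of 1 that a call requires, and 3.28% were called higher. In controls it was 1.31 (SE 0.35, unadjusted p 0.00206, adjusted p 0.0786) and was called, as were 2.02% of transcripts. The BPA exposed fetuses differed by 0.67 (SE 0.35, adjusted p 0.408).

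In LV the LFC over both treatments was 0.92 (SE 0.28, 95% CI 0.31 to 1.54), with a limma p of 0.00678 before and 0.134 after adjustment. It was not called, since it lay below 1 in size, whereas 2.52% of transcripts were called higher and 0.573% passed the adjusted threshold in that direction. Without fetus 2, 7 or 12 it was 1.05, 1.02 and 1.02 and would have been called. The difference was 0.33 (SE 0.39, adjusted p 0.786) in controls, where it ranged from 0.12 without fetus 1 to 0.59 without fetus 2 and was 0.19 without fetus 8 and 0.52 without fetus 7. In controls 1.46% of transcripts were called. The difference was 1.52 (SE 0.39, unadjusted p 0.00264, adjusted p 0.184) in BPA exposed fetuses. The test of the difference between those 2 changes is the same contrast as LG against EG in the effect of BPA, which is given with the BPA results.

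In RV the LFC over both treatments was 0.37 (SE 0.46, 95% CI −0.62 to 1.36, adjusted p 0.547). It was 0.59 (SE 0.66) in controls, and 0.80 without fetus 7, and was called in neither comparison, against 4.48% of transcripts called higher over both treatments and 3.15% in controls. Without fetus 12 the LFC over both treatments was 0.89 (SE 0.27, unadjusted limma p 0.00522), and without fetus 7 it was 0.48 (SE 0.50). With each fetus left out in turn it ranged from 0.02, without fetus 11, to that 0.89, and it was 0.22 without fetus 10.

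In LA, where the fit had no filter, the LFC was 0.46 (SE 0.21, 95% CI −0.00 to 0.92, adjusted p 0.344) over both treatments and 0.68 (SE 0.30, adjusted p 0.431) in controls. Without control fetus 3 these values were 0.29 and 0.34. Thrb was called in neither, as against 0.887% of transcripts called higher over both treatments and 0.841% in controls.

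**Figure D2:**
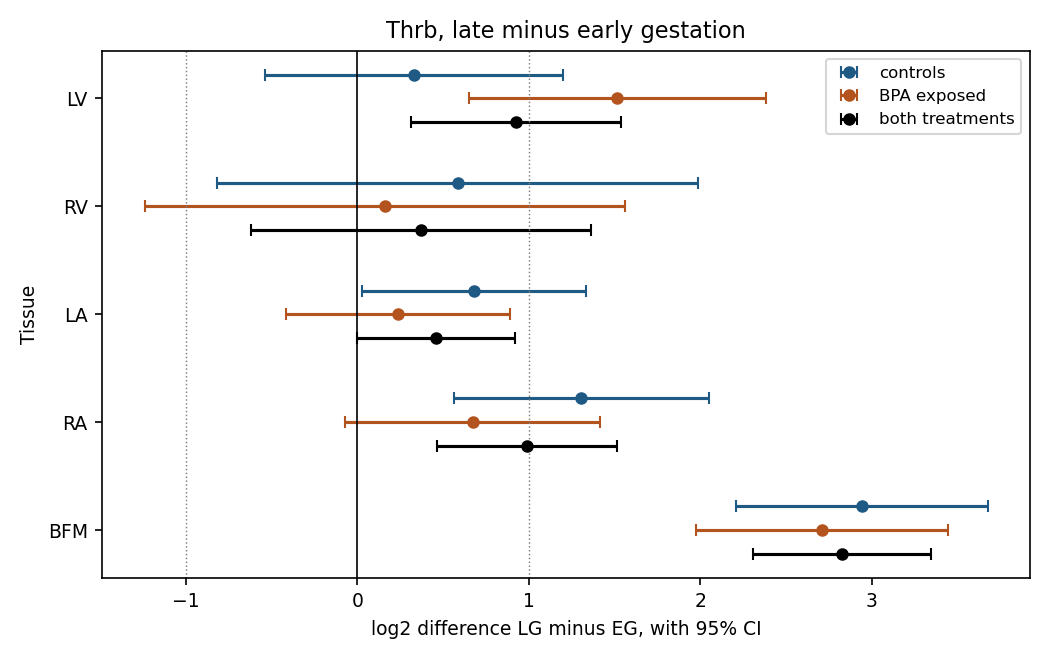
LFC of Thrb, LG minus EG (horizontal axis, log2), by tissue in controls, in BPA exposed fetuses and over both treatments, with 95% CI and dotted lines at −1 and 1. The intervals over both treatments lie above 0 in LV, RA and BFM, and BFM at 2.82 stands to the right of all heart chambers.

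An exact two-sided permutation test of Thrb alone, in which the 400 arrangements of window labels within a treatment allow no p below 0.005, gave 0.005 in both RA and BFM, the smallest it can give, and 0.02 in LV. The corresponding exact p was 0.065 in LA and 0.525 in RV. With Benjamini-Hochberg adjustment over the 5 tissues, these exact permutation values became 0.0125 in RA and BFM, 0.0333 in LV, 0.0813 in LA and 0.525 in RV. In LV the exact p was 0.4 in controls alone, where EG and LG overlapped. It was 0.1 in BPA exposed fetuses, the smallest possible there, where EG and LG were apart. A permutation p counts the label arrangements at least as extreme as the observed one, with 3 fetuses in each group. Over both treatments, LV lay below 0.05 by the permutation p adjusted over 5 tissues. It lay above 0.05 by the limma p adjusted over 17628 transcripts, which was 0.00678 before adjustment. The 2 adjusted values thus cover families of unlike size.

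Because each fetus gave all 5 tissues, the gestational change over both treatments could be compared between tissues within fetuses. The comparison was added after the values had been seen. No share over all transcripts was taken for it, and whether an LFC has the same scale in each tissue was not tested. BFM changed by more than every heart chamber. Its LFC exceeded that of RV by 2.45 (SE 0.64), of LA by 2.36 (SE 0.39), of LV by 1.90 (SE 0.39) and of RA by 1.83 (SE 0.35). The exact permutation p, adjusted over the 10 pairs of tissues, was 0.03 against LV and 0.0125 against each of the other 3 chambers, where the p before adjustment was 0.005, the smallest that the permutations could give. Within the heart, the change in LA was smaller than in RA by 0.53 (SE 0.14, exact adjusted p 0.0125). The other 5 pairs of chambers gave exact permutation p-values from 0.155 to 0.875 before adjustment, with differences of −0.07 for LV minus RA, 0.46 for LV minus LA, 0.55 for LV minus RV, −0.08 for RV minus LA and −0.62 for RV minus RA. Without fetus 12 the pairs with RV were 0.13 for LV minus RV, 0.36 for RV minus LA, −0.16 for RV minus RA and −1.86 for RV minus BFM. With each fetus left out in turn, LV minus RA ranged from −0.24 without fetus 1 to 0.08 without fetus 7, RV minus LA was as low as −0.35 without fetus 11, and LV minus LA was 0.30 without fetus 1, so the signs of LV minus RA and RV minus LA turned with single fetuses. In controls alone the LFC was 0.33 in LV, 0.59 in RV, 0.68 in LA and 1.31 in RA. LV was then the lowest, so the signs of LV minus RV and LV minus LA turned in controls. Pairs were not tested in controls alone.

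The effect of maternal BPA was read as BPA minus control within a window. No BPA contrast of Thrb was called in any tissue, and the smallest adjusted limma p over the 10 comparisons was 0.983. The largest differences were in the ventricles after LG exposure and ran in opposite directions, higher in LV and lower in RV, and the value in RV rested on fetus 12.

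In LV the LG BPA fetuses averaged 8.52 ± 0.38 (SD, n = 3) and the LG controls 7.67 ± 0.34 (SD, n = 3). The LFC of 0.85 (SE 0.39, 95% CI −0.02 to 1.71) is a 1.80-fold higher level, with a limma p of 0.0548 before and 0.983 after adjustment. All 3 BPA fetuses lay above all 3 controls, as was so for 4.41% of the transcripts tested in LV, and the exact permutation p was 0.1, the smallest that 3 against 3 fetuses can give. By comparison 0.84% of LV transcripts were called in LG in either direction and 0.925% in EG. With each fetus left out in turn, the LFC in LG ranged from 0.65 to 1.03, and its unadjusted limma p from 0.0424 to 0.153.

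After EG exposure the difference in LV had the other sign, at −0.34 (SE 0.39, 95% CI −1.21 to 0.53), with the BPA fetuses at 7.00 ± 0.20 (SD, n = 3) inside the range of the controls or just below it. It was −0.55 (SE 0.45) without control fetus 1 and −0.09 (SE 0.41) without control fetus 2, and −0.22 without BPA fetus 4. The LG effect exceeded the EG effect by 1.18 (SE 0.56, 95% CI −0.04 to 2.41), with a limma p of 0.0567 before and 0.859 after adjustment. Without control fetus 2 it was 0.93 (SE 0.56, limma p 0.124 before adjustment). The 3 LG BPA arrays enter the LG effect, the gestational change of BPA exposed fetuses and this difference alike, so the 3 values are not separate observations.

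In RV the LFC was −0.86 (SE 0.66, 95% CI −2.27 to 0.54) after LG exposure and −0.44 (SE 0.66, 95% CI −1.84 to 0.96) after EG exposure. The EG value ranged from −0.66 to −0.20 with each fetus left out, the latter without fetus 6. Of all transcripts tested in RV, 0.549% were called in LG and 0.615% in EG. Without fetus 12 the LG value turned to 0.16 (SE 0.40, limma p 0.693), without fetuses 7 and 11 in turn it was −1.08 (SE 0.74) and −1.58 (SE 0.62), and the LG minus EG difference in effect turned from −0.42 (SE 0.93) to 0.60 (SE 0.54) without fetus 12.

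In both atria and in BFM the LFC after BPA stayed between −0.25 and 0.54. After EG exposure it was 0.34 (SE 0.30, 95% CI −0.32 to 0.99) in LA, 0.54 (SE 0.35, 95% CI −0.21 to 1.28) in RA and −0.02 (SE 0.33, 95% CI −0.75 to 0.71) in BFM. With each fetus left out in turn, the EG value ranged from 0.00025 to 0.54 in LA, the former without control fetus 3 and the latter without control fetus 2, from 0.37 to 0.69 in RA, and in BFM from −0.43 without fetus 4 to 0.28 without fetus 6. After LG exposure it was −0.11 (SE 0.30, 95% CI −0.76 to 0.55) in LA, −0.10 (SE 0.35, 95% CI −0.84 to 0.65) in RA and −0.25 (SE 0.33, 95% CI −0.99 to 0.48) in BFM. Leaving out each fetus gave −0.28 (without fetus 11) to 0.07 (without fetus 9) in LA, −0.35 (without fetus 11) to 0.03 (without fetus 10) in RA, and −0.42 (without fetus 8) to −0.06 (without fetus 7) in BFM, so the sign in both atria turned with single fetuses. Every interval contains 0, and each extends beyond 0.7 on the log2 scale in at least 1 direction, which limits what 3 fetuses a group can show. Called transcripts amounted to 0.256% (EG) and 0.375% (LG) in LA, 0.439% in either window in RA, and 0.267% (EG) and 0.825% (LG) in BFM.

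**Figure D3:**
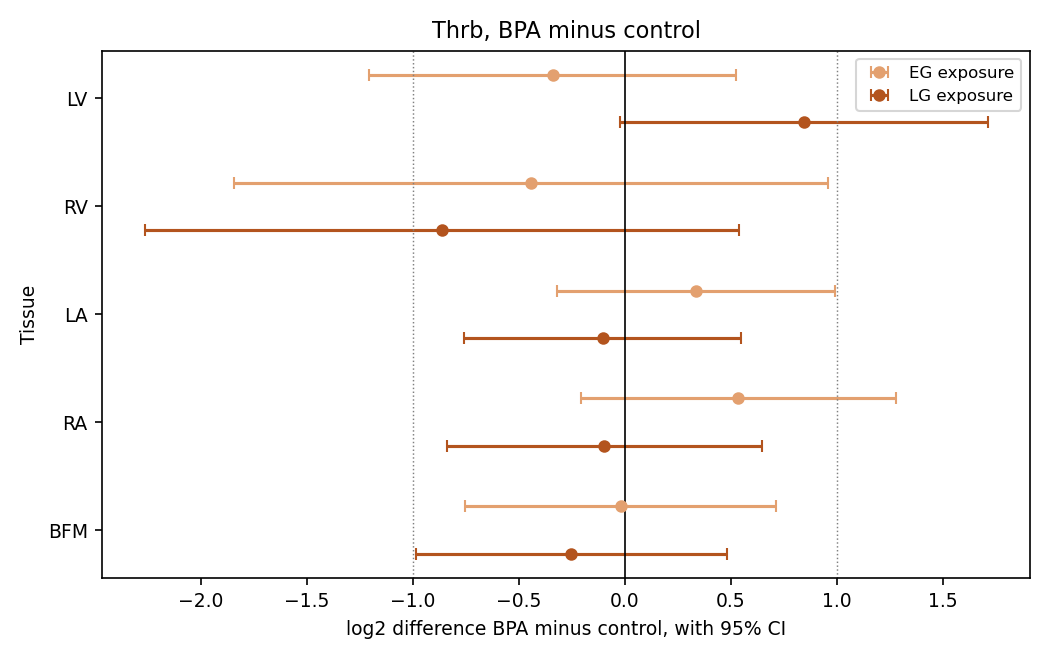
LFC of Thrb, BPA minus control (horizontal axis, log2), by tissue after EG and LG exposure, with 95% CI and dotted lines at −1 and 1. All 10 intervals include 0, and the LG value in LV, 0.85, has the interval that reaches least far to the other side.

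The effects in LV and RV were also set against each other, since both come from the same fetuses. Whether an LFC has the same scale in both ventricles was not tested. In a joint fit of both ventricles, the LG effect of BPA in LV exceeded that in RV by 1.71 (SE 0.82, 95% CI −0.01 to 3.43), with a limma p of 0.0508 before adjustment and an adjusted p that rounds to 1.00. With the fetus as a replicate block the SE was 0.68 and the unadjusted p 0.0285, and the adjusted p again rounded to 1.00. Without fetus 12 the difference was 0.87 (SE 0.56, p 0.138 by limma), so its size rests in part on the RV array of that fetus. The gestational change over both treatments differed by 0.55 (SE 0.58, adjusted limma p 0.90) between LV and RV, and by 0.13 without fetus 12. In controls alone the LFC with gestation was 0.33 in LV and 0.59 in RV.

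The question of whether Thrb and Myh6 moved together over fetuses could be put only in part. Myh6 has thyroid hormone response elements in its promoter and is the classical target by which thyroid status is read in cardiac muscle. In 3 of the 4 combinations of ventricle and window, however, Myh6 fell into a low and a high level with more than 50% of its range between them, so that a correlation would only compare 2 clusters, and none is given there.

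In LV of LG fetuses, Myh6 was low in fetus 10, at 7.62, and fetus 12, at 5.56, both exposed to BPA. The remaining LV values were 13.45 in BPA fetus 11 and 14.16, 14.43 and 14.19 in the controls. Thrb in the 2 fetuses with low Myh6 was 8.51 and 8.14, above all 3 controls, and in BPA fetus 11, whose Myh6 was near the controls, it was 8.90 and the highest in LV. The higher Thrb in LG BPA fetuses was thus present at both levels of Myh6.

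In RV of LG fetuses, Myh6 was low in control fetus 7, at 6.47, and BPA fetus 12, at 7.63, the 2 arrays with the lowest correlation to other RV arrays. It was 12.84 and 13.68 in BPA fetuses 10 and 11 and 14.23 and 14.01 in control fetuses 8 and 9. Thrb in fetuses 7 and 12 was 7.66 and 5.18, the lowest LG values in RV, against 7.86 to 8.66 in the other 4.

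In RV of EG fetuses, Myh6 was 5.51, 6.77 and 7.43 in fetuses 1, 2 and 5 and 11.91, 12.77 and 11.85 in fetuses 3, 4 and 6. Thrb was 7.12 to 7.39 in the former 3 and 6.59 to 7.77 in the latter. Both the highest and the lowest EG values of Thrb in RV thus occurred at the high level of Myh6.

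Only in LV of EG fetuses was Myh6 continuous, from 5.69 to 7.16. Over those 6 fetuses Pearson's r between Thrb and Myh6 was 0.26 (exact permutation p 0.593) and Spearman's rho 0.31 (exact permutation p 0.564), and no other such relation was computed. Without the 2 fetuses farthest from the median of Myh6, fetuses 4 and 5, r was −0.21, and with 1 fetus left out it ranged from −0.24 to 0.60, so no relation was detectable at this number.

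**Figure D4:**
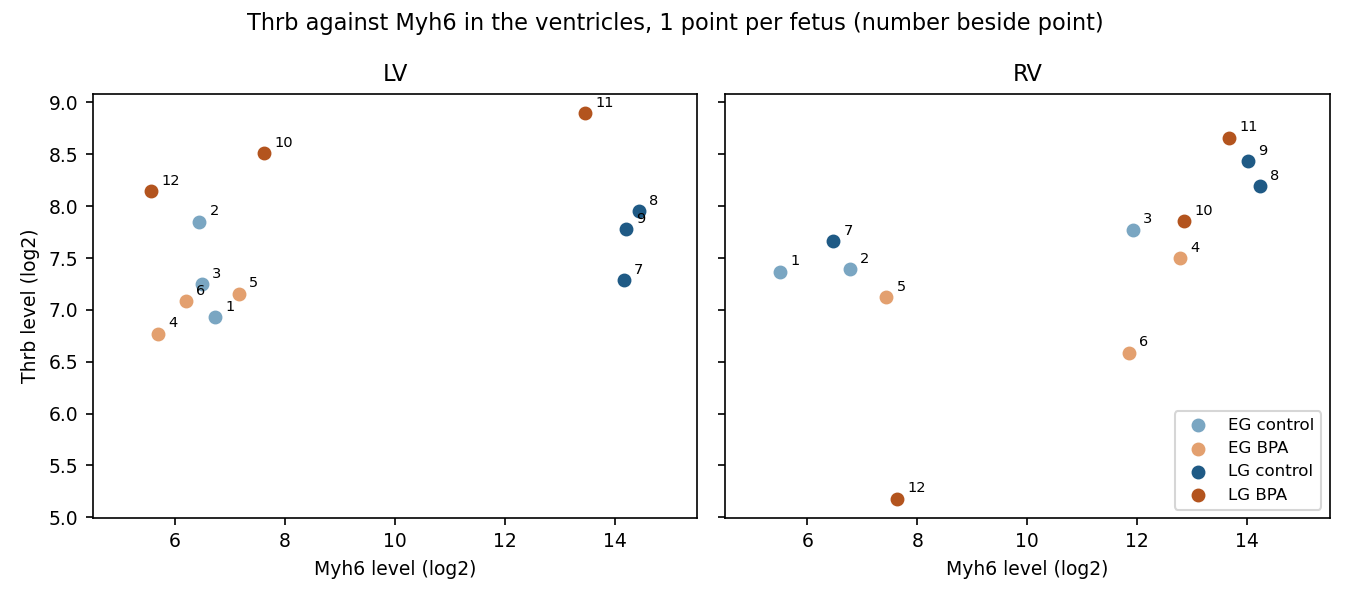
Thrb (vertical axis, log2) against Myh6 (horizontal axis, log2) in LV and RV, 1 numbered point per fetus, coloured by group. In LV the LG BPA fetuses 10 and 12 hold Myh6 of 7.62 and 5.56 and Thrb of 8.51 and 8.14, and in RV fetus 12 combines a Myh6 of 7.63 with the lowest Thrb.

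Whether a fetus high in Thrb for its group in 1 tissue was also high in another was assessed with deviations from the group means, over 12 fetuses and all 10 pairs of tissues. LA and RA varied most alike, with Pearson's r of 0.80 (exact permutation p 0.0123, 0.123 after adjustment over the 10 pairs) and rho of 0.74 (exact permutation p 0.0363). The r was 0.85 without fetuses 2 and 3, the 2 farthest from the median in LA. Fetus 3 was the lowest EG fetus in both atria and fetus 6 the highest, while fetus 11 was above its group mean in all 5 tissues and the highest LG fetus in LV, RV and RA. For LV and RV r was 0.50 (exact permutation p 0.17, adjusted 0.566), and 0.23 without fetus 12, and for BFM against each chamber it was between −0.42 and −0.11, with adjusted exact permutation p from 0.536 to 0.754. With each fetus left out it ranged from −0.45 to 0.42 for RV and BFM and from −0.40 to 0.19 for RA and BFM, and kept its sign for LV and for LA. None of the 10 relations passed adjustment.

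Other genes of thyroid hormone and nuclear receptor signalling could be read only where the study names their transcripts, since the deposited identifiers were not paired with symbols in the gene tables used here. The list holds 7 transcripts, namely Myh6, the potassium channel KCNA5 and Pdk4 (pyruvate dehydrogenase kinase 4, which restrains glucose oxidation) as thyroid hormone responsive genes, NR4A1 and HNF4G as nuclear receptors, and RARRES3 and CRABP1 (cellular retinoic acid binding protein 1) as retinoid genes. The study picked these names mostly for differences after BPA in these same arrays, so their BPA values are not independent evidence. The LG controls and LG BPA fetuses behind that choice also enter the change with gestation, so the counts below are a description of the list only. Over both treatments, 4 of the 7 were called higher and 1 lower in LG in LV, where all 7 passed the filter. In RV 1 was higher and 1 lower (5 passed), in LA and in RA 2 were higher and 0 lower (3 passed in each), and in BFM 2 were higher and 1 lower (4 passed). Over all transcripts past the filter, the share called higher was 2.52% (LV), 4.48% (RV), 3.06% (LA), 3.28% (RA) and 12.2% (BFM). The share called lower was 13.2% for BFM, 6.98% for RV, 4.42% for LA, 3.61% for RA and 2.72% for LV. The median LFC of the list was 1.42 in LV, where that over all transcripts was −0.01, and 0.46 in RV, where it was 0.08. In LA the list had a median of 0.13, in RA 0.15 and in BFM 0.26, beside −0.01, 0.00 and −0.00 over all transcripts.

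The calls outside LV were those of Pdk4, NR4A1 and CRABP1. Pdk4 was called in every tissue, with a LFC of 3.82 (SE 0.50) in BFM, 3.52 (SE 0.56) in RV, 3.40 (SE 0.61) in LV, 2.84 (SE 0.31) in RA and 2.70 (SE 0.34) in LA, and limma adjusted p-values of at most 0.0235. NR4A1, an immediate early nuclear receptor, was called in LV, LA, RA and BFM, with a LFC of 2.30 (SE 0.69) in LV at an adjusted limma p of 0.134 and of 2.81 (SE 0.36) in BFM. CRABP1 was called lower in LV, RV and BFM, with a LFC of −3.08, −2.36 and −2.95 and a limma adjusted p of 0.104, 0.00653 and 0.000554. Myh6 (LFC 5.12, SE 1.04) and KCNA5 (1.42, SE 0.34) were called higher in LV alone, where their adjusted p was 0.0383 and 0.0731 by limma. HNF4G and RARRES3 were called in no tissue.

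**Figure D5:**
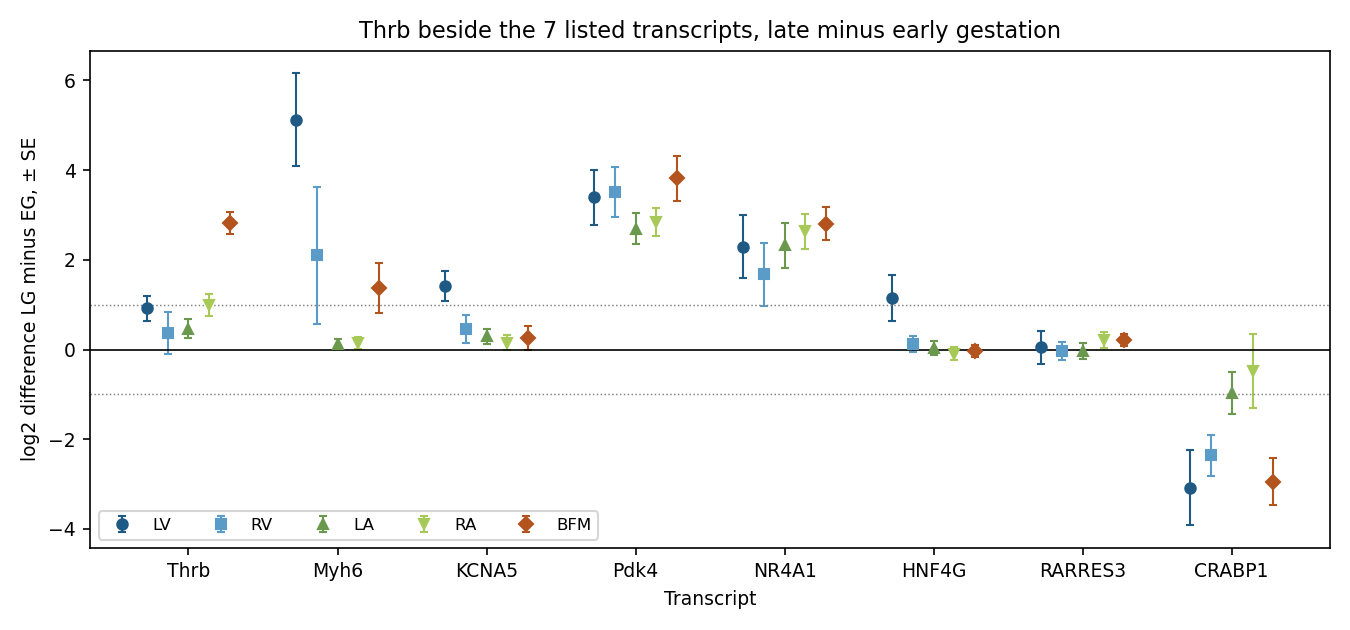
LFC, LG minus EG over both treatments (vertical axis, log2, ± SE), for Thrb and the 7 listed transcripts in each tissue, with dotted lines at −1 and 1. Pdk4 lies between 2.70 and 3.82 in all tissues, whereas Thrb is at 2.82 in BFM and at or below 0.99 in the heart.

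In the BPA comparisons, 2 of the 7 listed transcripts were called lower in LV after EG exposure, HNF4G at −2.54 (SE 0.73) and RARRES3 at −1.82 (SE 0.52). In LV after LG exposure Myh6, at −5.38 (SE 1.47), and KCNA5, at −1.49 (SE 0.48), were lower, and RARRES3, at 1.91 (SE 0.52), was higher. Outside LV, CRABP1 was called higher in RV, at 2.24 (SE 0.66), and NR4A1 in RA, at 1.82 (SE 0.56), both after LG exposure. Over all transcripts tested, 0.925% were called in LV after EG exposure, and after LG exposure 0.84% in LV, 0.549% in RV and 0.439% in RA. The smallest adjusted limma p among these 7 calls was 0.961.

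Transcripts with a pattern like that of Thrb were sought by Pearson's r over the 60 arrays after each tissue had been centred on its own mean, among the 9802 transcripts that passed the filter in at least 3 tissues. The points share fetuses and arrays, and the large difference between LG and EG in BFM weighs heavily on r, so the values describe these arrays only. The 99th percentile of r was 0.68. The most similar transcripts were ENSMMUT00000033488, with r of 0.83 over 60 arrays and 0.70 over the 48 heart arrays, and ENSMMUT00000014461, with 0.82 and 0.55, neither of which is named in the tables used. The most opposite were ENSMMUT00000040792, with −0.84 and −0.77, and ENSMMUT00000007702, with −0.83 and −0.65.

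Among the 414 compared transcripts that the study names, Pdk4 was the most similar to Thrb, with r of 0.67 over all arrays and 0.59 over the heart. It was followed by arrestin domain-containing protein 2 (0.64), whose LFC with gestation was 4.53 in BFM and between 0.70 and 2.04 in the heart, complement factor D (0.53), ENSMMUT00000028364, annotated only as protein-coding (0.50), and the lysosomal protease cathepsin S (0.49). For arrestin domain-containing protein 2 the r over the heart alone was 0.23, so that its likeness lay mostly in BFM.

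At the other end stood 2 small nucleolar RNAs of the SNORD113/SNORD114 family, ENSMMUT00000050957 and ENSMMUT00000033627 (r −0.74 and −0.68), Adam12, a metalloprotease with a disintegrin domain (−0.67), mml-mir-487a (−0.67) and the membrane protein prominin-1 (−0.66). In BFM their LFC with gestation was −4.22, −2.65, −2.16, −4.86 and −4.32 in that order, where Thrb had 2.82. Adam12 fell in LV by 1.08 and in RV by 1.21, both called, and its LFC was −0.75 in LA and −0.95 in RA. Over the heart arrays alone, r was −0.44 and −0.51 for the small nucleolar RNAs, −0.45 for Adam12, −0.34 for mml-mir-487a and −0.16 for prominin-1, whose LFC with gestation was 0.46 in LV and 0.16 in RV. After the 20 group means had been removed, r with Thrb among the 5 similar named transcripts was 0.34 for Pdk4, 0.17 for cathepsin S, and between −0.46 and −0.02 for the other 3. Among the 5 opposite ones it was −0.29 for Adam12, between −0.16 and −0.09 for the small nucleolar RNAs and prominin-1, and 0.16 for mml-mir-487a. Myh6 had an r of 0.34 over the 60 arrays.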

How the data were processed

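Expression was measured with 60 custom NimbleGen arrays (Cy5) designed on the Ensembl Mmul_1 rhesus transcripts. The authors extracted probe intensities with NimbleScan, and processed each tissue by RMA (background correction, quantile normalization of probes, median polish). The deposited table holds 1 log2 value per transcript and array. Among the heart chambers, only atrial cDNA was amplified by PCR before labelling, and each chamber had its own slide. The preparation and slides of BFM are not given in the sources used here. Raw intensities and background were not analysed here. Precision is limited by the number of arrays.

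Groups came from the sample labels. Each tissue was fitted on its own with limma 3.58.1 in R 4.3.3 (lmFit with 1 mean per group over 12 arrays, contrasts.fit, eBayes) on transcripts with an interquartile range of at least 0.5. Thrb failed that filter in LA and was fitted there with all transcripts. Calls needed both a log2 fold change of 1 or more, up or down, and an unadjusted p no higher than 0.01, with Benjamini-Hochberg adjusted p-values given beside it. Single values were tested by exact two-sided permutation in Python 3.11.15 with pandas 2.3.3 and numpy 2.4.6. Samples with the same number in their titles were taken as 1 fetus in every tissue, and the pairing by animal rests on that number. The fits and permutations were tested on simulated data.

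The transcript, the lists and the tests were chosen with earlier results of these data known, and the comparison of gestational change between tissues was added last. Named transcripts were Thrb and Myh6 in all tissues, the fixed list, and the 5 highest and 5 lowest correlations among named transcripts, with the 2 highest and 2 lowest overall. Names came from the tables of the study, matched by identifier and by fold change within 0.002 for 582 transcripts, and 0 transcript identifiers were found in the gene tables used, so further lists by symbol, including markers of other cell types, were not read. No sequence is shown for the same reason. Relations of Thrb to Myh6 as deviations from group means were planned and not run, because Myh6 formed separate levels. Alternatives were median centring, a further quantile normalization, no filter, array weights (which did not converge in RV), trend and robust eBayes settings, a floor on the mean level at the 25th percentile of the tissue, only the arrays of a window or only controls, the fetus as a block, rank correlation, and each fetus left out. A sign change was taken as a reversal if the value exceeded its SE, or a correlation or permutation had a p of at most 0.05, in either fit.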

Additional observations from a re-analysis of the deposited data

Results flagged for a closer look

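RV of LG BPA fetus 12 had a Thrb level of 5.18, and its gap to the next of the 6 LG fetuses in RV was 0.713 of their range, above Dixon's critical value of 0.625. Of the 10 groups tested in this way it alone passed, and chance flags about 1 in 20 groups. The same array had the lowest median correlation with the other RV arrays, 0.848, and Thrb of the same fetus was 8.14 in LV, 8.46 in LA, 8.55 in RA and 10.45 in BFM. Whether the array or the tissue piece lies behind the value was not tested.

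The gestational change of Thrb over both treatments differed between tissues in 5 of 10 pairs by an exact permutation test of the difference within fetuses. It was smaller than in BFM by 1.90 in LV (LV minus BFM −1.90), 2.45 in RV (−2.45), 2.36 in LA (−2.36) and 1.83 in RA (−1.83), and smaller in LA than in RA (−0.53). For RV against BFM the value was −1.86 without fetus 12. The share of all transcripts that differ between tissues in this way was not taken. In BFM, 22.2% of the transcripts tested had all LG fetuses above all EG fetuses. BFM was normalized apart from the heart chambers, and the values compared are changes within a tissue. The lowest value of an array was −1.20 to 0.63 in LV, 3.12 to 3.39 in the other chambers and 4.22 to 4.29 in BFM. Whether an LFC has the same scale in each tissue was not tested. The preparation of BFM is not given in the sources used here, so preparation and tissue cannot be told apart in its differences from the heart. LA and RA were both amplified and lay on separate slides.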

How the results depend on the processing

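Over 53 results and the alternatives other than leaving out a fetus, all 218 recomputed values kept their direction and their side of the threshold, or changed sign only within their error. The fetus as a replicate block was among them. It left the LV minus RV difference of the LG BPA effect at 1.71 and that of the gestational change at 0.55, and changed no call. With each fetus left out in turn, 49 of the 53 results held. The gestational change over both treatments ranged from 0.82 to 1.05 in LV, passing the size of 1 without fetus 2, 7 or 12, and from 0.86 to 1.07 in RA, passing it without fetus 1, 2, 5, 6, 8, 10 or 12. In RV the LG BPA effect ranged from −1.58 to 0.16 and the LG minus EG difference in effect from −1.14 to 0.60, with both turning positive without fetus 12. Array weights, whose iteration did not converge in RV, moved several LFCs that were not called by over 1.5 times. In RV the LG BPA effect was −0.24 in place of −0.86, the LG minus EG difference in effect 0.10 in place of −0.42 and the gestational change over both treatments 0.68 in place of 0.37. In LV the control change was 0.58 in place of 0.33 and the EG BPA effect −0.14 in place of −0.34, and in LA the BPA effect was 0.12 in place of 0.34 in EG and −0.29 in place of −0.11 in LG. The rank correlation of the deviations of the same fetuses also differed from Pearson's r by over 1.5 times in several pairs, among them RV and RA (−0.21 in place of 0.24) and LV and RA (0.03 in place of 0.19). With 3 fetuses a group an exact test of BPA against control within a window cannot give a p below 0.1, and how values such as 5.18 relate to background signal was not tested.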
